A study of Mus musculus with 3 samples.

Results

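The promoters described here are those of protein-coding genes at which peaks of RNA polymerase II (RNAP2) and of the Mediator subunit Med12 coincided in the developing mouse hand plate. A promoter was included where an RNAP2 peak narrower than 4000 bp overlapped the interval of 1 kb on either side of an annotated start of a protein-coding transcript, and overlapped a Med12 peak by at least 1 bp. This gave 1480 RNAP2 peaks, which are 7.23% of the 20479 peaks of the RNAP2 list. They are 17.1% of the 8672 RNAP2 peaks under 4000 bp at coding starts (95% Wilson interval 16.3 to 17.9%), and the other 7192 of these had no Med12 peak. Members were chosen by the deposited peak positions of both proteins and by the width of the RNAP2 peak, so the presence of both is a description and not a finding.

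Chromatin came from distal forelimbs dissected from untreated mouse embryos at E12.5, for which the labels name no mutant allele, and dissociated into cells before fixation, while the text accompanying the series gives E11.5. Neither the sex of the embryos nor the number pooled was given for these libraries. There was 1 ChIP-seq library for RNAP2, 1 for Med12 and 1 input library, of which the 2 antibody libraries have a peak list, so no value below has a replicate error and no test between samples was possible. The peak lists hold a position and a score for each peak, 10 times the negative log10 of the peak p-value, and no read counts, so the depth at a peak is unknown. Scores rank peaks within a list and were not compared between the lists. Intervals on shares and on differences between shares cover counting error only.

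Mediator is a large complex that bridges transcription factors bound at enhancers and promoters and the RNAP2 machinery at the start site. Med12 belongs to the kinase module of Mediator, which also holds Med13, cyclin C and Cdk8 and associates reversibly with the rest of the complex. RNAP2 accumulates at the start of many genes before productive elongation, so an RNAP2 peak at a promoter marks a loaded gene and not necessarily its output. The tissue is mostly mesenchyme with ectoderm, vessels, blood and nerve, and a promoter occupied in fewer cells cannot be told apart from one less occupied in each cell. RNAP2 peaks lay within 1 kb of a coding start for 9 of 9 marker genes of distal limb mesenchyme, such as Prrx1, Msx1 and Lhx9. It was also so for 3 of 3 markers of proximal limb mesenchyme, among them Meis2 and Shox2, and for the hindlimb gene Pitx1 but not Tbx4, so these peaks do not set distal forelimb apart from other limb mesenchyme. This was so for 1 of 10 markers of ectoderm, 2 of 8 of endothelium, 1 of 8 of blood, 3 of 7 of muscle and 3 of 7 of nerve and glia. Of the markers on these lists, Prrx2, a paired-type homeobox gene of limb mesenchyme, and Erg, an ETS factor of endothelium and early cartilage, were the only members.

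The 250 bases upstream of the start are shown for the 6 members with the highest Med12 scores, because these are the promoters at which the Med12 list ranked its peak most clearly above the rest of the set. They are read 5′ to 3′ on the strand of the gene from the mm9 reference, and the last base adjoins the start. Capitals mark letters that match any of 21 motifs searched on both strands, and a match is a description and not a bound site.
Arid1a, chr4:133312685-133312934, minus strand: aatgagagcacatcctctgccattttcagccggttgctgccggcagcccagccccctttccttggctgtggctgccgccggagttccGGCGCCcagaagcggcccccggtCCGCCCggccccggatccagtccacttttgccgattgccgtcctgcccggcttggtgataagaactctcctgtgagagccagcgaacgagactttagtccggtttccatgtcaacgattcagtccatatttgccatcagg
Suv420h1, chr19:3767899-3768148, plus strand: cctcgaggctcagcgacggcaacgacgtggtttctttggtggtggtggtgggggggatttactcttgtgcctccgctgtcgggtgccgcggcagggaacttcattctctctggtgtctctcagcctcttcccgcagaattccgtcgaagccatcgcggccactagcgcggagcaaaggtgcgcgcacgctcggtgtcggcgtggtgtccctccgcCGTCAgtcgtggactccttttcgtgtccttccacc
Cltc, chr11:86571068-86571317, minus strand: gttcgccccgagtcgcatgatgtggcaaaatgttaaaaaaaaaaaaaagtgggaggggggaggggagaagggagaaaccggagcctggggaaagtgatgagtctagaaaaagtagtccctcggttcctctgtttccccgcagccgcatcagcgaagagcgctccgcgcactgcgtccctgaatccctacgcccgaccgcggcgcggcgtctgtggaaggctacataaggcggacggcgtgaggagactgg
Lphn1, chr8:86423754-86424003, plus strand: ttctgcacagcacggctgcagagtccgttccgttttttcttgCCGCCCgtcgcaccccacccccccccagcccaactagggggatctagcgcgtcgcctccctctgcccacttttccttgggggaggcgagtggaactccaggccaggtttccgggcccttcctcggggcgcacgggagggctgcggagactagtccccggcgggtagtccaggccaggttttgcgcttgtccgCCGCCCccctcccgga
Zfp668, chr7:135020292-135020541, minus strand: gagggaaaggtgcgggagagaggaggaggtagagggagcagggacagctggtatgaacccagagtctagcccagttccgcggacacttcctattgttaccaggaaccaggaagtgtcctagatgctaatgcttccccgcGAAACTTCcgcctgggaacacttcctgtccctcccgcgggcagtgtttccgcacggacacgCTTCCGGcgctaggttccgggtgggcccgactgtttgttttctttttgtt
Mapkapk5, chr5:121995915-121996164, minus strand: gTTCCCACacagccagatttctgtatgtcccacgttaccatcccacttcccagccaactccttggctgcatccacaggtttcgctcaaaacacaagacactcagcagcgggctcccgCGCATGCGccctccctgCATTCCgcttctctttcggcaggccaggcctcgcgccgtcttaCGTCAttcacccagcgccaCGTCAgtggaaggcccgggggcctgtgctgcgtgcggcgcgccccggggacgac

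These upstream stretches differed in their motifs. Arid1a, which encodes a subunit of the BAF chromatin remodelling complex, held 1 GC box (GGGCGG, here as its complement) and 1 match to the BMP response element GGCGCC. Lphn1, which encodes an adhesion G protein-coupled receptor, held 2 GC boxes. Mapkapk5, a kinase downstream of MAP kinases, held 2 CRE cores (TGACG) and 1 match each to the NRF1 core CGCATGCG, the RBPJ site GTGGGAA and the TEAD site GGAATG. Suv420h1, a histone methyltransferase gene, held 1 CRE core. Zfp668, a zinc finger gene, held 1 ETS site (CCGGAAG) and 1 HSF pair (GAANNTTC), and no letters matched upstream of Cltc, the clathrin heavy chain gene. GC content of the printed bases ran from 58% at Zfp668 to 68.4% at Lphn1, so the 6 promoters were all rich in G and C, and no motif was common to all.

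Each promoter usually had a single Med12 peak and a single gene. Of the 1480 members, 1452 overlapped 1 Med12 peak and 28 overlapped 2. Starts of 1 coding gene lay within reach of 1209 members, of 2 genes at 260 and of 3 or more at 11. The members held 1502 Med12 peaks, 14.1% of the 10634 in the list. By gene, 1742 of 22380 protein-coding genes had such a promoter (7.78%), or 19% of the 9153 genes with an RNAP2 peak under 4000 bp at a start. These shares are the background against which gene lists are read.

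Positions are given from the annotated coding start nearest the centre of the RNAP2 peak. The closeness of RNAP2 peaks to the start is thus partly set by this choice and by the rule. With that start, most members had both peaks on the start itself. Among the 1289 members without a second coding gene starting divergently within 1 kb, the RNAP2 peak covered the start at 1209 (93.8%, 92.3 to 95%) and the Med12 peak at 1002 (77.7%, 75.4 to 79.9%). At the remaining promoters a peak lay beside the start. The Med12 peak had to meet the RNAP2 peak and not the 1 kb interval itself, so at Rarg its centre was at -2516 bp from the start, where negative values are upstream.

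The limits of the rule cut through a continuous range. Just under 4000 bp were the RNAP2 peaks of 4930524J08Rik and Hnrnpd (3988 bp), Stim2 (3951 bp) and Gtf2i (3920 bp), and just over were those of Sh3glb1 (4046 bp), Sall1 (4053 bp) and Tbx3 (4096 bp). The shortest overlaps with Med12 were 21 bp at Cdkl3, 28 bp at Smoc1 and 40 bp at Mdfi. The nearest Med12 peaks that missed lay 4 bp from the RNAP2 peak at Kif2a, 18 bp at Evx1 and 25 bp at Usp3. In all, 130 promoter peaks without Med12 had a Med12 peak within 1000 bp. The lowest Med12 scores among members were 40 at Chmp7 and 40.1 at Prrx2 and Nek9, which is the bottom of the deposited list.

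Med12 was found more often at promoters with higher RNAP2 scores. The median RNAP2 score of members was 674 (quartiles 267 and 1453, range 40.4 to 3190.4), against 272 (quartiles 114 and 666) at promoter peaks without Med12, and the quartile ranges overlapped. With the 8672 promoter peaks divided into 10 equal classes by RNAP2 score, Med12 overlapped 6.34% in the lowest class (4.9 to 8.16%) and 38.5% in the highest (35.3 to 41.8%). The share rose along the classes except from the fourth, with 13.6%, to the fifth, with 12.1%. Many strong RNAP2 peaks are tied at a score of 3100, and this value was carried by 104 members (7.03%) and by 84 peaks without Med12 (1.17%).

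**Figure D1:**
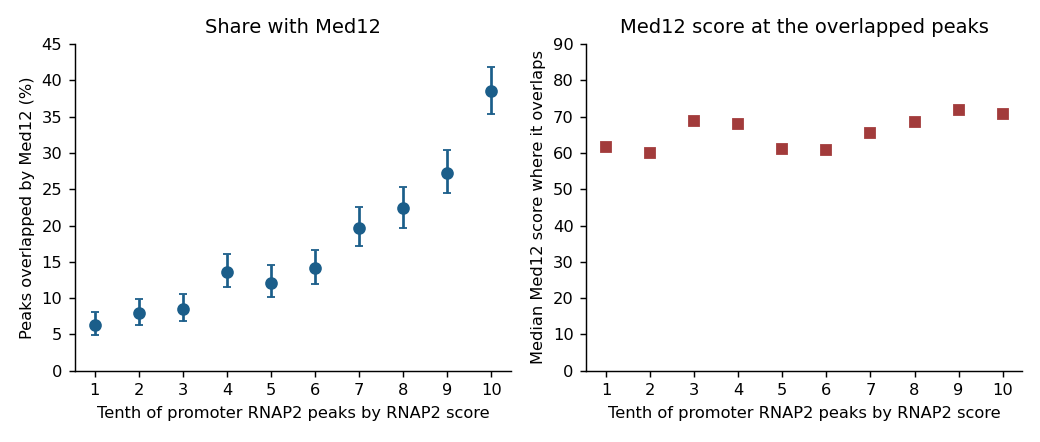
Left, share of the promoter RNAP2 peaks under 4000 bp overlapped by a Med12 peak (%, bars are 95% Wilson intervals) in 10 equal classes of RNAP2 score, 1 being the lowest. Right, median score of the Med12 peak at the overlapped promoters of the same classes, where the share climbed from 6.34 to 38.5% and the median Med12 score stayed between 60 and 71.7.

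The score of the Med12 peak, where there was one, moved little along the same classes. Its median was 61.7 in the lowest class, 60 in the next and 70.8 in the highest, and no class had a median above 71.7. RNAP2 score went with whether a Med12 peak was listed and hardly with how high that peak scored. Both scores depend on width and on the depth of their library.

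Width moved with the overlap as well, and a wider RNAP2 peak offers more bases for a Med12 peak to touch. Med12 overlapped 7.73% of RNAP2 peaks under 1000 bp (5.93 to 10%) and 36.9% of those from 3000 to 4000 bp (31.5 to 42.7%). Among the 206 promoter peaks of 4000 bp or more, which are not members, 118 had Med12 (57.3%, 50.5 to 63.8%). Within the lowest of 3 equal classes by RNAP2 score, the share was 7.89% under 1500 bp and 8.86% at 2000 bp or more. Within the highest class it was 20.8% (17.9 to 24%) and 36.8% (34.1 to 39.7%), so width went with the overlap among high-scoring peaks and not detectably among low-scoring ones. At narrow peaks under 1500 bp the share still went from 7.89% in the lowest class to 20.8% in the highest. The median width of members was 1689.5 bp, against 1401 bp without Med12.

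Med12 peaks at these promoters scored a little above the rest of the Med12 list and below its distal sites. The highest Med12 score at a member had a median of 67.9 (quartiles 50.6 and 101, range 40 to 856), and Med12 peaks elsewhere had a median of 55.5 (n = 9132). The 2693 Med12 peaks that overlapped RNAP2 more than 5 kb from any coding start had a median of 90.2. A score under 50 was found at 357 members (24.1%) and one of 100 or more at 377 (25.5%), and the former rest on Med12 peaks near the floor of the list.

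The 15 highest Med12 scores were at promoters of genes with varied roles. Arid1a led with a Med12 score of 856 over an RNAP2 peak at chr4:133312170-133314105 with a score of 719. Suv420h1 followed with 666 and Cltc with 631, both with an RNAP2 score of 3100. Lphn1 had a Med12 score of 609 with an RNAP2 score of only 192, and the pair Rad17 and Taf9, a checkpoint clamp loader and a TFIID subunit on opposite strands, had 412 with an RNAP2 score of 198. RNAP2 scores at these 15 promoters thus ran from 192, below the lower quartile of 267 for all members, to 3100. None lay near the lowest RNAP2 score of a member, 40.4. Zfp668 (579), Mapkapk5 (527), Mll2 (526), Mtf2 (522) and Nfatc4 (515) came next, with RNAP2 scores of 1066, 627, 796, 3100 and 508. Mll2 encodes a histone methyltransferase, Mtf2 a Polycomb partner and Nfatc4 a calcineurin-regulated transcription factor. The remaining promoters of the first 15 were those of Smarca2 (486), an ATPase of BAF complexes, Gnb2 with Epo (450.5), a G protein subunit gene beside the erythropoietin gene, G430095P16Rik (420.3), Kdm3a (392), a histone demethylase gene, and Pcdh18 (389), a protocadherin gene.

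**Figure D2:**
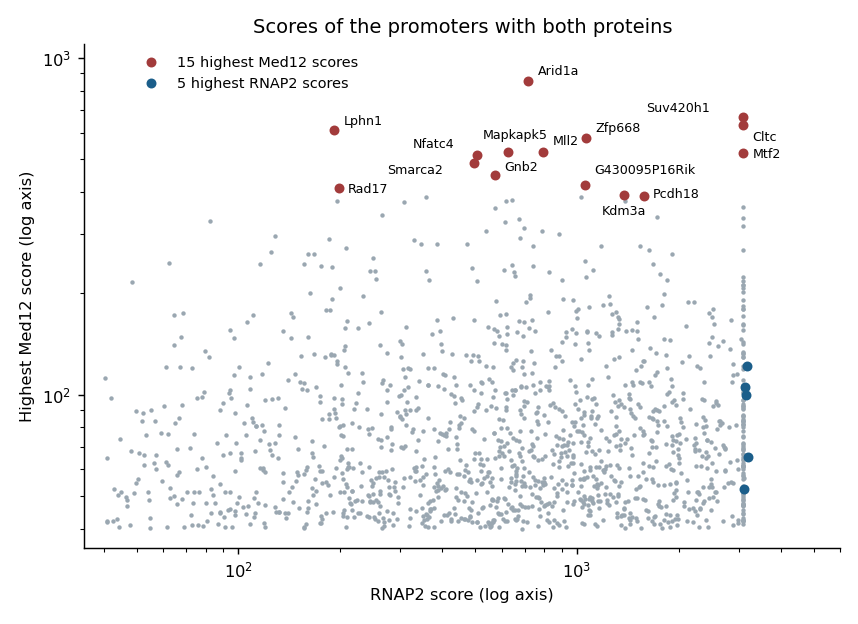
Each point is 1 of the 1480 promoters, with its RNAP2 score on the x axis and the highest Med12 score on the y axis, both on log axes and without unit. Red points are the 15 highest Med12 scores and blue points the 5 highest RNAP2 scores, and the column of points at an RNAP2 score of 3100 is the tie of 104 members.

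The members with the highest RNAP2 scores had Med12 scores far below the highest ones. They were Cacybp (RNAP2 score 3190.4, Med12 score 65.2), Rpl15 with Nkiras1 (3174 and 122), Ier2 (3161 and 99.4), Luc7l2 (3134 and 105) and U2af2 (3122 and 52.6). Cacybp encodes a calcyclin-binding protein, Rpl15 a ribosomal protein, Ier2 an immediate early protein, and Luc7l2 and U2af2 splicing factors. At Ier2 both peaks lay upstream and neither covered the start, with the RNAP2 centre at -1980.5 bp and the Med12 centre at -1446 bp. Against the median of 67.9 for all members, the Med12 score was higher at Rpl15, Luc7l2 and Ier2, of which Rpl15 and Luc7l2 also passed the upper quartile of 101, and lower at Cacybp and U2af2. Among the 28 promoters with 2 Med12 peaks, the highest Med12 scores were 199 at Mllt10, 166 at 1110012D08Rik, 162 at Gtf2i, 149.7 at Zfp827 and 145 at Stat3, the gene of a cytokine-activated transcription factor.

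Within a promoter, the centre of the Med12 peak more often lay upstream of the centre of the RNAP2 peak. At the 1289 members without a divergent coding start, the centre of the Med12 peak had a median position of -82.5 bp from the start (quartiles -281 and 82.5) and lay upstream at 841 (65.2%, 62.6 to 67.8%). The centre of the RNAP2 peak had a median of 39 bp and lay upstream at 549 (42.6%, 39.9 to 45.3%). Because the start used is the one nearest the RNAP2 centre, RNAP2 centres are held close to it by choice, and Med12 centres are not. Taken promoter by promoter, the Med12 centre was upstream of the RNAP2 centre at 868 (67.3%, 64.7 to 69.8%), with a median difference of -99 bp. RNAP2 centres at the 6549 comparable promoters without Med12 had a median of 48 bp, and 37.1% were upstream (36 to 38.3%).

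**Figure D3:**
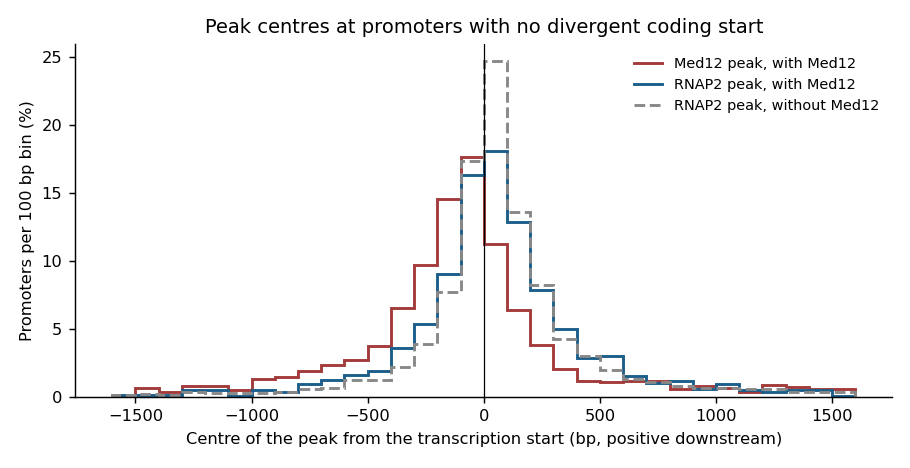
Distribution of peak centres around the start (bp, positive values downstream) as the percent of promoters in each 100 bp bin, for Med12 (red) and RNAP2 (blue) at the 1289 promoters with both and no divergent coding start, and for RNAP2 (grey, dashed) at the 6549 without Med12. The Med12 curve peaks just upstream of the start, with a median of -82.5 bp, and both RNAP2 curves just downstream.

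The edges showed a narrower Med12 peak within an RNAP2 peak that extended beyond it more often downstream than upstream. The Med12 peak ran from a median of -587 bp to 413 bp, and the RNAP2 peak from -782 bp to 859 bp. The Med12 peak had a median width of 1013 bp, covered a median of 59% of the RNAP2 peak, and lay wholly inside it at 1065 of 1480 members (72%, 69.6 to 74.2%). RNAP2 reached further than Med12 on the downstream side at 1154 of the 1289 (89.5%) and on the upstream side at 1015 (78.7%). At promoters without Med12 the RNAP2 peak ran from -638 bp to 714 bp.

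The shift between the proteins grew with the width of the RNAP2 peak. Its median was -24.8 bp for RNAP2 peaks under 1000 bp, -110.5 bp from 1500 to 2000 bp and -526 bp from 3000 to 4000 bp. In that widest class the quartiles were -869 and 206 bp, so Med12 stood toward either end of some broad peaks. Med12 centres lay more than 500 bp upstream of the start at 170 members (13.2%) and more than 500 bp downstream at 131 (10.2%), and within 250 bp at 731 (56.7%). Nfatc4, with a Med12 centre at -1617 bp, and the Prrx2 member peak of higher Med12 score, with one at 1823 bp, are examples of the tails.

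The upstream position differed between kinds of promoter. At 1014 CpG-rich promoters the Med12 centre had a median of -102 bp and lay upstream at 68.6% (65.7 to 71.4%). At the 275 others 52.7% lay upstream (46.8 to 58.5%), an interval that holds an even split. CpG-rich here means at least 50% G and C and an observed to expected CpG ratio of at least 0.6 over the 300 bp from 250 bp before to 50 bp after the start. By Med12 score, the median was -71.5 bp under 50, -67.5 bp from 50 to 100 and -135 bp at 100 or more. The upstream shares were 62.8% (57.3 to 68%), 64.2% (60.5 to 67.8%) and 69.5% (64.3 to 74.2%), whose intervals overlap.

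Most genes with several promoter peaks had Med12 at none of them, and where Med12 was present it was rarely at all. Of 595 genes with 2 or more RNAP2 promoter peaks under 4000 bp, Med12 lay at all of the peaks in 15, at some in 180 (30.3%, 26.7 to 34.1%) and at none in 400. Of 8558 genes with 1 such peak, 1547 had Med12 there (18.1%, 17.3 to 18.9%). Several peaks need not be several promoters. Some of the genes counted here share the same peaks, as Fancm and Fkbp3 do, so the counts are not independent and their intervals may be too narrow. Of the 1502 Med12 peaks at members, 6 overlapped 2 members, as at Smoc1, where both had the same nearest start. In the 180, Med12 was at the peak of highest RNAP2 score in 130 (72.2%, 65.3 to 78.2%). For the 149 of these with exactly 2 peaks, Med12 was at that peak in 107 (71.8%, 64.1 to 78.4%), and at the peak nearer the first annotated start in 81 (54.4%, 46.4 to 62.2%), not distinguishable from an even split. Members at a start more than 1 kb downstream of the first start of their gene numbered 135 (9.12%, 7.76 to 10.7%), against 10.1% of promoter peaks without Med12.

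Arid1a had 3 promoter peaks, with RNAP2 scores of 719, 253 and 91.9. The first 2 had Med12 scores of 856 and 233 and the weakest had none, so the order of the Med12 scores followed that of RNAP2 there. In Smarca2 the order was the reverse, with a Med12 score of 70.4 over an RNAP2 score of 1300.4 and a Med12 score of 486 over an RNAP2 score of 497 at the downstream start. Prrx2 had Med12 scores of 40.1 and 341 over RNAP2 scores of 54.9 and 266, and no Med12 over the remaining peak of 370.1. Its peaks with Med12 lay on opposite sides of the same nearest start and neither covered it, so they are not separate promoters. Both promoters of Sema3a, a secreted axon guidance cue, had Med12 (379.6 and 234) over similar RNAP2 scores (642 and 607). Cbx5, the gene of heterochromatin protein HP1 alpha, had Med12 scores of 121 and 92.8 over RNAP2 scores of 639 and 3100. Auts2, a gene of neural development, had 6 promoter peaks and Med12 at 1.

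Divergent gene pairs were more frequent among members. A second coding gene started on the opposite strand within 1 kb upstream at 191 members (12.9%, 11.3 to 14.7%) and at 643 promoter peaks without Med12 (8.94%), a difference of 3.96 percentage points (2.21 to 5.88). The median RNAP2 score was 722 at divergent members and 665 at the others. Within 3 equal classes by RNAP2 score the difference was 2.38 points (-0.563 to 6.63) in the lowest, 5.33 points (2.02 to 9.21) in the middle and 0.391 points (-2.25 to 3.24) in the highest. The interval lay above 0 in the middle class alone. At divergent members the starts were a median of 186 bp apart, from 11 to 969 bp. Where they were at least 200 bp apart, the Med12 centre lay between them at 60 of 91 (65.9%, 55.7 to 74.8%) and the RNAP2 centre at 48 (52.7%, 42.6 to 62.7%), with overlapping intervals.

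The divergent pairs with the highest Med12 scores were Zfp668 with Zfp646 (579), whose starts lay 19 bp apart, Rad17 with Taf9 (412, 284 bp), Srsf7 with Ttc39d (359.9, 780 bp), 2810408A11Rik with Neurl4 (359, 891 bp) and Nhlrc3 with 2810046L04Rik (327, 375 bp). Srsf7 encodes a splicing factor. In the Rad17 pair the Med12 centre was at -33 bp from the Rad17 start and so between both starts, while in the Zfp668 pair it was at 521 bp, downstream of the Zfp668 start.

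The promoter sequences of members differed little from those of other RNAP2-bound promoters. CpG-rich promoters made up 79.8% of members and 79% of promoter peaks without Med12, a difference of 0.785 points (-1.53 to 2.97), against 43.9% of all coding starts. The median GC content was 62.3% and 63%, and 56.3% over all starts. When RNAP2 score was held within classes, members were less often CpG-rich, by -6.59 points (-13.2 to -0.378) in the lowest, -3.36 (-7.86 to 0.707) in the middle and -3.3 (-6.15 to -0.651) in the highest class. CpG-rich promoters made up 62.9% of members in the lowest class and 85.6% in the highest.

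Of the 21 motifs searched in the 300 bp window, 3 were rarer at members over all classes and none was more frequent by its interval. The GC box GGGCGG, the site of Sp and Klf factors, was in 67.2% of members and 70.1% of promoters without Med12 (-2.9 points, -5.54 to -0.319), against 44.2% of all starts. The CCAAT box, the site of NF-Y, was in 35.3% and 39% (-3.62 points, -6.27 to -0.906), against 35.7% of all starts. The Myc-type E-box CACGTG was in 8.78% and 10.9% (-2.15 points, -3.68 to -0.446), against 7.67% of all starts. These differences were small beside the shares themselves. The intervals were not adjusted for the number of motifs.

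Within the RNAP2 score classes, 52 of 63 motif comparisons had an interval that included 0, 8 were below 0 and 3 above. The widest of the 3 gaps above 0 was that of the TATA box TATAAA in the lowest class, in 11.6% of members and 6.06% of the others (5.58 points, 1.93 to 10.4). In the middle and highest classes it was in 3.37% and 6.37% of members and in 4.73% and 6.41% of the others, where both intervals of the difference include 0. Psmd1, a proteasome subunit gene with a Med12 score of 265 over an RNAP2 score of 125, was the member of that class with a TATAAA match and the highest Med12 score. The other gaps above 0 were the RBPJ site GTGGGAA in the lowest class, 9.48% against 5.87%, and the AP-1 site TGANTCA in the highest, 4.33% against 2.77%. Over all starts, TATAAA was in 11.4%, GTGGGAA in 5.99% and TGANTCA in 6.49%. The differences below 0 were more numerous. They were those of the GC box in the lowest (-11.6 points, -18.2 to -4.99) and middle class (-5.92 points, -10.9 to -1.18) and of the CRE core TGACG in the middle (-5.36 points, -9.95 to -0.437) and highest class (-6.32 points, -10.2 to -2.34). The others were CACGTG in the lowest class (-6.73 points, -8.93 to -3.22), the homeodomain site TAATTA in the middle (-1.58 points, -2.31 to -0.233), and in the highest class CCAAT (-5.21 points, -9.03 to -1.3) and the ETS site CCGGAAG (-3.83 points, -7.13 to -0.365).

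For the remaining motifs the interval of the difference between members and promoters without Med12 included 0 over all classes. Among sites of general promoter factors, the CRE TGACGTCA was in 3.65% of members and 2.13% of all starts, its core TGACG in 34.9% and 23.4%, the ETS site CCGGAAG in 19.3% and 10.9%, the NRF1 core CGCATGCG in 4.12% and 2.22%, and the YY1 site AAGATGG in 8.58% and 6.82%. The core lies within the full CRE, so these counts overlap. Of sites for limb factors, the posterior HOX site TTTATNG was in 7.3% and 9.05%, the homeodomain site TAATTA in 1.89% and 4.22%, the Twist and Hand type E-box CATATG in 1.35% and 2.99%, and the TEAD site GGAATG in 11.6% and 13.1%. Of signalling sites, the TCF/LEF site CTTTGAA was in 2.7% and 4.45%, the BMP response element GGCGCC in 27.5% and 15.3%, the SMAD box GTCTAGAC in 0.27% and 0.181%, the GLI site TGGGTGGTC in 0.27% and 0.22%, the serum response element core CCATATTA in 0.135% and 0.283%, and the HSF pair GAANNTTC in 5.88% and 6.91%. Promoters without Med12 had GGCGCC in 25.1%, CCGGAAG in 20.6% and TGACG in 35.2%, so these gaps to all starts are not particular to members. Letters absent from this window say nothing about the factor.

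Members lay near distal sites with both proteins more often than other promoters did. A distal site, a Med12 peak overlapping RNAP2 more than 5 kb from any coding start, was within 50 kb of 160 members (10.8%) and of 504 promoter peaks without Med12 (7.01%), a difference of 3.8 points (2.2 to 5.58). The difference was 3.63 points (0.269 to 8.24), 3.35 points (0.56 to 6.78) and 3.33 points (0.991 to 5.9) in the lowest, middle and highest RNAP2 score class, above 0 in each. Within 100 kb the shares were 17.8% and 14.3% (3.52 points, 1.47 to 5.7), and the difference was 1.64 points (-2.68 to 7.01), 3.41 points (-0.239 to 7.57) and 3.52 points (0.544 to 6.68) from the lowest to the highest class, above 0 in the highest alone. Members with 3 or more such sites within 100 kb numbered 34 (2.3%), against 82 (1.14%).

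Most of these promoters had no distal site in reach, and a few had many. Eapp, the gene of an E2F-associated protein, had 6 within 50 kb, beside a Med12 score of 269 and an RNAP2 score of 3100 at its promoter. A noncoding U1 start lies divergently within 1 kb upstream of Eapp. The Med12 centre was at -981 bp and the RNAP2 centre at -642 bp, so these peaks cannot be assigned to Eapp alone. Starts of noncoding genes were not excluded from the distal sites. Gorab, Ror2 and Tex14 had 4 each. Ror2 encodes a receptor for Wnt5a needed for digit growth, and had a Med12 score of 43.8 over an RNAP2 score of 1094. A promoter near a distal site is not thereby its target, and no contact data were used.

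Gene length differed by little between promoters with and without Med12. Its median was 27983 bp for members and 25865 bp for promoters without Med12. Genes over 100 kb made up 15.4% and 15% (0.43 points, -1.51 to 2.52). By RNAP2 score class the difference was 4.87 points (-0.379 to 10.9) in the lowest, 4.29 points (0.539 to 8.53) in the middle and 0.825 points (-1.61 to 3.48) in the highest, above 0 in the middle class alone. Genes under 10 kb made up 20.7% and 23.1% (-2.41 points, -4.62 to -0.0623), just below 0, and within each class the interval included 0.

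Chromosome X stood apart from the autosomes. Of 221 promoter RNAP2 peaks on X, 11 had Med12 (4.98%, 2.8 to 8.69%), against 1469 of 8449 on autosomes (17.4%, 16.6 to 18.2%), a difference of -12.4 points (-14.7 to -8.61). The 19 autosomes ranged from 14.3% on chromosome 2 to 22.8% on chromosome 12. The gap was present in each RNAP2 score class, with 3.92%, 5.95% and 5.71% on X and 8.18%, 14.6% and 29.1% on autosomes from lowest to highest, although the X intervals are wide and in the lowest class reach 9.65%. Median RNAP2 scores were 208 on X and 318 on autosomes. At distal RNAP2 peaks the shares with Med12 were 20.2% on X (13.6 to 28.9%) and 25.6% on autosomes (24.7 to 26.4%), and these intervals overlap. X carried 1.65% of all RNAP2 peaks and 0.893% of all Med12 peaks, and the part of this lower number of X peaks in the result was not tested.

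**Figure D4:**
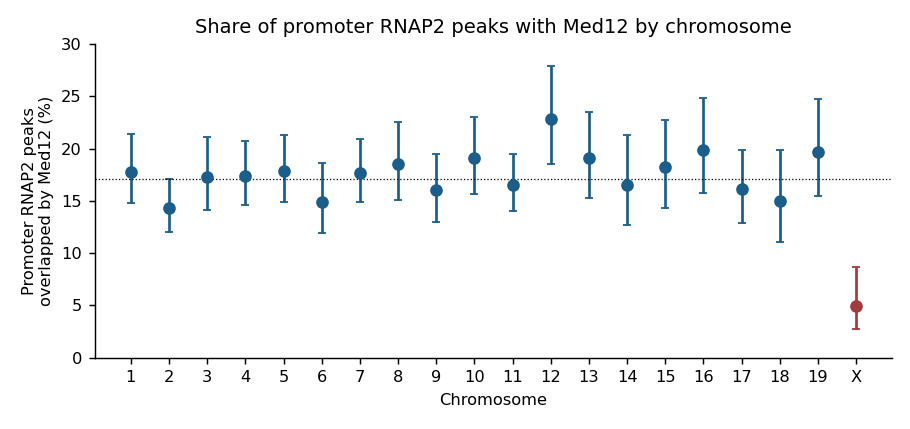
Share of promoter RNAP2 peaks under 4000 bp overlapped by Med12 (%) on each autosome (blue) and on X (red), with 95% Wilson intervals and a dotted line at 17.1%, the share over all. X, at 4.98%, lies below every autosome.

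The 11 promoters on X were those of Ogt (Med12 score 142), Kdm5c (101), Mcts1 (64), Eif2s3x (52.8), Rpl10 (51.3), Cask (45.4), Gprasp1 (44.6), Mmgt1 (44.4), Nono (42.2), Cited1 (41.1) and Snx12 (40.3). Their median of 45.4 lay below the 68.1 of autosomal members. Kdm5c and Eif2s3x are known to escape X inactivation in mice, and Ogt encodes the enzyme that adds N-acetylglucosamine to nuclear proteins. The Med12 gene itself lies on X, and its promoter had an RNAP2 peak without Med12.

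Among patterning genes of the limb, more had Med12 under wide RNAP2 peaks than under the narrower ones described here. The gene lists below were put together with earlier results of these data known, so their counts are descriptions, read against the 19% of all genes with an RNAP2 peak under 4000 bp. Of 16 patterning factors of distal limb mesenchyme with such a peak, 4 were members. They included Prrx2, Lmx1b (Med12 score 64.3, RNAP2 score 542), a LIM homeobox gene of dorsal limb identity, and Sp9 (49.5 and 440.2), a zinc finger gene known from the apical ridge. Another 14 of the 43 genes on that list, including Tbx3, Tbx5, Msx2, Hand2 and Twist1, had Med12 under an RNAP2 peak of 4000 bp or more and under no narrower one, so the rule leaves them out. That is 14 of the 34 with an RNAP2 peak at a start (41.2%, 26.4 to 57.8%), against 140 of 9349 such genes in all (1.5%, 1.27 to 1.76%).

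In 5 signalling pathways the interval of the share included the 19% background, and in each pair of values here the Med12 score comes first, single values being Med12 scores. The Hedgehog list gave 1 of 8, Gli2, a transcriptional effector of the pathway, with a Med12 score of 137 over an RNAP2 score of 2834. The BMP and TGF-beta list gave 5 of 26 and was led by the ligand Gdf5 (144 and 301), which marks future joints, then Smad5 (89.7), Smad3 (86.5), the receptor Bmpr1b (83) and the repressor Skil (79.8). At Smad5 the Med12 centre was at -1440 bp, over a weak RNAP2 peak with a score of 55.2. The other Smad5 promoter peak, with an RNAP2 score of 1000.3, had no Med12. The FGF list gave 4 of 16, the feedback inhibitors Spred2 (277 and 739.8), Spred1 (191 and 971) and Dusp4 (54.3 and 1144), and the ligand Fgf9 (97.5 and 95.2). The Wnt list gave 9 of 30, including the receptors Fzd2 (292 and 678) and Fzd8 (83.7), the feedback inhibitor Axin2 (244 and 156), the kinase Gsk3b (96.9), the effector Tcf7l2 (48.1) and Ctnnb1 (47.2), the gene of beta-catenin. The Notch list gave 2 of 15, the coactivator Maml3 (129) and the DNA-binding effector Rbpj (79.3). The rule leaves out genes with Med12 only under RNAP2 peaks of 4000 bp or more. Of genes with an RNAP2 peak at a start, these were 3 of 10 for Hedgehog (Gas1, Gli3 and Ptch1) and 5 of 33 for BMP and TGF-beta (Id1, Id2, Id3, Smad6 and Smad7). They were 2 of 19 for FGF (Dusp6 and Fgfr2), 1 of 31 for Wnt (Wnt5a) and 1 of 16 for Notch (Hes1), against 1.5% over all genes.

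The retinoic acid list gave 7 of 14 genes. By promoter peak it gave 7 of 19 (36.8%, 19.1 to 59%), while 13.9% of all promoter peaks in the same RNAP2 score classes had Med12. The receptors Rarg (Med12 score 288, RNAP2 score 331) and Rarb (132 and 167) led, followed by the retinol dehydrogenase gene Rdh10 at a promoter shared with Rpl7 (95.6 and 699). Dhrs3 (78.6 and 912), an enzyme that turns retinal back into retinol, Nrip1 (64.3 and 495), a nuclear receptor corepressor, and Rxrb with Slc39a7 (60.5 and 2429) followed. The Rarg promoter is a wide one of 3917 bp, with a Med12 peak of 2260 bp inside it that is centred toward its upstream side. The shared Rdh10 and Rpl7 promoter cannot be assigned to either gene. The same holds for Rxrb with Slc39a7 and for the remaining member, Ncor1, at a divergent promoter with Pigl.

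Genes of differentiation and matrix were near the background. The cartilage and bone list gave 3 of 15, namely Col9a1 (Med12 score 177, RNAP2 score 993), a cartilage collagen gene, Sox6 (70.2 and 179), a partner of Sox9 in chondrocytes, and Foxc1 (43.9 and 1078). The matrix list gave 3 of 17, Fn1 (131 and 1837), Has2 (75.9 and 132), the gene of a hyaluronan synthase, and Col3a1 (43.6 and 352). Of 17 cytoskeleton genes with known serum response factor sites, Myh9 alone was a member, with a Med12 score of 40.4 at the floor of the list. By peak that is 5.26% (0.935 to 24.6%), while 24.2% of promoter peaks in the same RNAP2 score classes had Med12. Another 4 of the 20 cytoskeleton genes with an RNAP2 peak at a start had Med12 only under peaks of 4000 bp or more. They were Actb, Actg1, Cfl1 and Tpm1, and the rule leaves them out. On the cartilage and bone list it was so for Nfatc1 and Sox9. Over all genes with an RNAP2 peak at a start it was so for 1.5%.

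Growth and immediate early genes had intervals that included the share of their score classes. The growth and cell cycle list gave 7 of 28 genes and 7 of 31 peaks (22.6%, 11.4 to 39.8%), beside 16% in the same score classes, and was led by Mycn (Med12 score 168, RNAP2 score 1335), a proto-oncogene of limb mesenchyme, Mxi1 (85.1 and 66.6), an antagonist of Myc, and E2f3 (55.5 and 767). The immediate early list gave 8 of 27 peaks (29.6%, 15.9 to 48.5%), beside 31.1% in the same score classes. They included Ier2, with both peaks upstream of its start, Klf10 (90.2 and 1728), Nr4a1 (80.1 and 3100) and Fosl2 (72.6 and 675). A further 8 genes of that list, among them Fos, Jun and Egr1, had Med12 under RNAP2 peaks of 4000 bp or more instead. Of the 36 with an RNAP2 peak at a start that is 22.2% (11.7 to 38.1%), against 1.5% over all such genes. Immediate early genes are known to respond within minutes to stimulation of cells.

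Among genes of the transcription machinery itself, the Mediator list gave 8 of 33. They included Cdk8 (Med12 score 178, RNAP2 score 186) and Med13 (74.3 and 1219.6) of the kinase module that holds Med12, the subunits Med6 (115 and 147) and Med20 with Usp49 (82.6 and 453), and Med26 (59.4 and 408) and Med23 (46.7 and 686). The list of RNAP2 subunits and elongation factors gave 6 of 30, led by Ccnt2 (231 and 827), a cyclin of the elongation kinase P-TEFb. Polr2a, the gene of the largest RNAP2 subunit, had a Med12 score of 45.4 under an RNAP2 score of 3100. The intervals of both lists, 12.8 to 41% and 9.51 to 37.3%, include the 19% background.

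Chromatin regulators and proteasome subunits had more members. The chromatin list gave 12 of 35 genes and 14 of 46 peaks (30.4%, 19.1 to 44.8%), beside 18.5% in the same RNAP2 score classes. Besides Arid1a, Mll2 and Smarca2 it held Mll1 (Med12 score 280.4, RNAP2 score 386), a histone methyltransferase gene, and Smarca4 (Med12 score 143), the other BAF ATPase gene. The median Med12 score of its 14 promoters was 127, against 67.9 for all members. The Polycomb genes Eed (128), Suz12 (107) and Rnf2 (49) and the cohesin genes Stag1 (109) and Smc3 (68.6) were also members. The proteasome list gave 11 of 32 (34.4%, 20.4 to 51.7%), beside 19.4%, with Psmd1, Psmd3 (115 and 696), Psmd12 (109.7 and 824) and Psmb2 (101 and 753) as its highest.

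**Figure D5:**
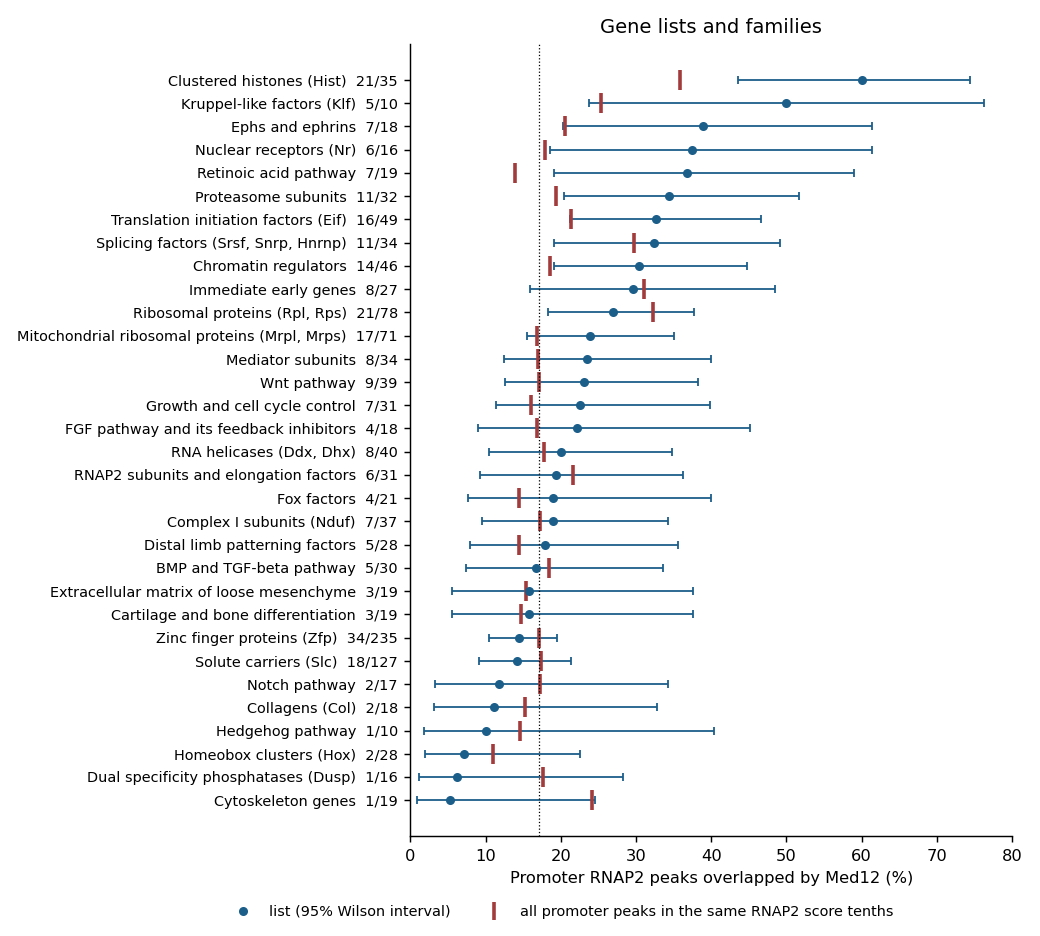
Share of promoter RNAP2 peaks under 4000 bp overlapped by Med12 (%) for the 32 gene lists and symbol families with 10 or more such peaks, with 95% Wilson intervals and, after each name, the overlapped and total peaks. Red bars give the share among all promoter peaks in the same RNAP2 score classes and the dotted line the 17.1% over all, and most intervals include their red bar, histones being the highest at 60%.

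Families of genes with a shared symbol were read in the same way. Clustered histone genes had the highest share of the families drawn, 21 of 35 promoter peaks (60%, 43.6 to 74.4%), beside 35.8% in the same RNAP2 score classes. Their RNAP2 scores were among the highest, with a median of 3100, and their Med12 scores were moderate, from 41.8 at Hist1h4j to 211 at Hist4h4. The highest score class is wide, and of all 188 promoter peaks tied at a score of 3100, 104 had Med12 (55.3%, 48.2 to 62.2%), a share inside the histone interval. At that tied score Med12 overlapped 16 of 22 histone promoters (72.7%, 51.8 to 86.8%) and 88 of 166 others (53%, 45.4 to 60.5%), with overlapping intervals. The 21 promoters belong to 34 histone genes, several of which share a promoter, such as Hist1h2ad, Hist1h2bf and Hist1h3d with a Med12 score of 122. Histone genes are near-identical copies in clusters, so reads could be split or misplaced among them and these values are uncertain.

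A further family had an interval above its score classes, by a small margin. Nuclear receptors gave 6 of 16 peaks (37.5%, 18.5 to 61.4%), beside 17.9%, with Nr2c1 (Med12 score 82.8), the immediate early gene Nr4a1, Nr1d2 (58.9), a clock repressor, and Nr2f2 (50 and 48.2), a mesenchymal regulator with Med12 at 2 promoters. Over the 39 lists and families with a promoter peak, 5 intervals lay wholly above the share of their score classes and none lay below. The 5 were histones, retinoic acid, proteasome, chromatin and nuclear receptors, and the histone interval includes the share of all peaks tied at 3100. Counted by gene, nuclear receptors gave 5 of 13 (38.5%, 17.7 to 64.5%), which includes the 19% background. The intervals were not adjusted for the number of lists, and nuclear receptors and the immediate early list share Nr4a1.

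For the remaining families the interval of the share included that of their score classes. Ribosomal protein genes gave 21 of 78 peaks (26.9%, 18.3 to 37.7%), beside 32.2%, and their mitochondrial counterparts 17 of 71 (23.9%, 15.5 to 35%), beside 16.8%. Translation initiation factors gave 16 of 49 (32.7%, 21.2 to 46.6%), beside 21.4%, among them Eif4a2 (Med12 score 211), a helicase of cap-dependent initiation. Splicing factors gave 11 of 34 (32.4%, 19.1 to 49.2%), beside 29.7%, among them Srsf1 (276). Ephs and ephrins, receptors and ligands of cell contact, gave 7 of 18 (38.9%, 20.3 to 61.4%), beside 20.5%, with Ephb3 (312) and Ephb4 (179) highest. Kruppel-like factors gave 5 of 10 (50%, 23.7 to 76.3%), beside 25.3%, and dual specificity phosphatases 1 of 16 (6.25%, 1.11 to 28.3%), beside 17.6%. The gap of the Ephs and ephrins was close to that of the nuclear receptors, and few peaks lie behind either. Zinc finger genes named Zfp gave 34 of 235 (14.5%, 10.5 to 19.5%), beside 17.1%, and solute carriers 18 of 127 (14.2%, 9.16 to 21.3%), beside 17.3%. None of 1087 olfactory receptor genes and none of 46 keratin genes had an RNAP2 peak at a start, so none could be a member.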

How the data were processed

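RNAP2 and Med12 were measured by ChIP-seq in distal forelimb cells, with 1 library each and 1 input library. Per the submitters' notes and the study's methods, the authors aligned reads, less their first base, to mm9 (Bowtie), filtered out redundant ones and used MACS 1.4.1 for peak calling in each library. Whether the input served as control is not given in the sources used here. The deposited value is the peak score, 10 times the negative log10 of the p-value, which starts at 40 in both lists, a weaker limit than the p-value threshold stated in the methods. The peak lists carry no counts, so depth per peak is unknown and scores are not comparable between libraries.

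Starts were taken from GENCODE vM1 (mm9), with 46028 starts of 22380 protein-coding genes. Overlaps were computed with Python 3.11.15 and numpy 2.4.6, gave the same members with bedtools 2.31.1, and were tested on simulated data. Shares have 95% Wilson intervals (scipy 1.17.1) and differences Newcombe intervals. Motifs were searched on both strands from 250 bp before to 50 bp after a start. Plots used matplotlib 3.10.9. With 1 library per antibody there was no test between samples.

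The comparison of histone promoters at 1 tied score was added after the data were seen. The members and lists were chosen with earlier results of these data known. Named are the 15 members with the highest Med12 score, the 5 with the highest RNAP2 score, the 5 with most Med12 peaks, up to 6 members per gene list, and the 3 peaks on each side of a limit. Genes on X, in families, in divergent pairs, with several starts or near distal sites, and further chromatin genes, were named after their values were seen. Alternatives were 2 higher score limits, 50% overlap, intervals of 500 bp and 2 kb, no width limit and a limit of 2000 bp. The input library, 5C and transgenic data were not analysed here. The values of 1 list member are not reported here.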

Additional observations from a re-analysis of the deposited data

How the results depend on the processing

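Of 77 values recomputed under 7 alternatives, 22 moved beyond their interval or by more than 1.5 times. The median Med12 centre stayed upstream of the start and of the RNAP2 centre under each of them. Differences between members and promoters without Med12 were not recomputed. An overlap of 50% of the shorter peak and intervals of 500 bp and 2 kb moved none. With scores of at least 50 in both lists, the share of promoter peaks with Med12 was 13.4%, the median Med12 score 81.2 and the share near a distal site within 100 kb 14.5%. With scores of at least 100 there were 358 members at 414 genes, all among the 1742, with a share of 5.13%, median RNAP2 and Med12 scores of 727 and 145, a median Med12 centre of -143 bp, divergent starts at 11.2%, a distal site at 9.5% and 28 genes of the lists in place of 91. Without a width limit the share was 18%, the median RNAP2 score 740.4 and the distal share 20%. Among RNAP2 peaks narrower than 2000 bp there were 979 members at 1138 genes, with a share of 13.9%, a median RNAP2 score of 441, a distal share of 15.7%, 51 list genes and a median of -67 bp between the Med12 and RNAP2 centres. Each of these limits admits a different set of peaks by score or by width, and what moved each value was not tested. No paired analysis was possible because there was 1 library per antibody. How many reads lie behind a peak is unknown, 24.1% of members rest on a Med12 score under 50, and absence from the list is not absence of Med12.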
